A study of Mus musculus with 6 samples.

Results

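The enzymes that handle isoprenoids outside the sterol branch, here Ggps1, Fnta, Fntb, Pggt1b, Rabggta, Rabggtb, Icmt, Dhdds, Pdss2 and Coq2, were followed in the livers of mice whose cholesterol supply was either blocked or raised by diet. They were chosen by name, as the measured enzymes that use farnesyl or geranylgeranyl diphosphate or act on the products made from them, and they are 10 of 19938 genes measured. All 10 had a probe set of their own. None of them passed the test between the diets, which 12.1% of all genes passed, so their count is not a result about these genes. Over the same arrays Fdps, the enzyme that makes farnesyl diphosphate, rose 7.25-fold.

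The 3 LE arrays (LE1, LE2 and LE3) hold RNA of mice whose chow contained 100 mg lovastatin and 21 mg ezetimibe in each 100 g. The 3 CH arrays (CH1, CH2 and CH3) hold RNA of mice whose chow contained 1% powdered cholesterol. All were male C57BL/6 mice, an inbred strain with no allele introduced, 6 weeks old at the start, which ate plain chow for 1 week before the diets. Total liver RNA was hybridised to 6 Affymetrix Mouse Gene 1.0 ST arrays, 1 sample per array. The labels call the arrays biological replicates without tying each to a mouse, so the p-values rest on a spread between arrays that may be partly technical, and how long the diets lasted is not given in the sources used here. Mice kept on plain chow, also named in the labels, are not analysed here, so each difference is between the 2 diets, and which diet moved a gene away from chow cannot be told apart.

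Isoprenoids are built from mevalonate, the product of the enzyme that lovastatin blocks, while ezetimibe blocks the uptake of cholesterol in the intestine. The pathway leads to farnesyl diphosphate, where it divides. One branch joins farnesyl groups into squalene and cholesterol. The others attach farnesyl or geranylgeranyl groups to proteins, which anchors Ras and Rab proteins and lamins to membranes, or extend them into dolichol, the carrier of sugars for protein glycosylation, and into the tail of coenzyme Q, an electron carrier of mitochondria. In liver the genes of the sterol branch are known to be driven by the transcription factor SREBP2, which is released when membrane sterol is low.

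Values are given as log2(intensity + 1), where the deposited intensity is the brightness of a probe set on a linear scale, and a difference is LE minus CH on that scale. The differences were tested with limma across all 19938 genes with Benjamini-Hochberg adjustment and a threshold of 0.05, and intervals are 95% intervals of the same fit, each for 1 gene. The array medians were 158 to 163 in intensity, and 3 arrays per diet limit the precision. A probe set's level depends on its probes, so levels are compared between diets and not between genes.

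Of the 10 enzymes, 0 were called higher and 0 lower by limma, against 12.1% of all genes called in either direction, 7.01% higher and 5.08% lower. With a background of 12.1%, a count of 0 of 10 is not a result about these genes. At an unadjusted p below 0.05 the count was also 0, where 24.8% of all genes reached it, and a test in the manner of cyberT, a program the series design names, called 0 at an adjusted p below 0.05, where it called 18.8% of all genes. The differences ran from -0.15 for Pdss2 to 0.11 for Fntb, 6 above 0 and 4 below, with a median of 0.01, beside a median of -0.005 over all genes. In this fit every interval included 0. After quantile normalisation 3 of the 10 had an unadjusted p below 0.05, all lower in LE, with intervals below 0. These were Ggps1 (-0.13, limma adjusted p = 0.0924), Pdss2 (-0.16, limma adjusted p = 0.107) and Coq2 (-0.13, limma adjusted p = 0.124). The count was 2 with limma's intensity trend, in the manner of cyberT, without CH2 and without LE3, and 1 without the dimmest genes and with a pseudocount of 16, drawn from the same 3 genes. As reported, the intervals together reached from -0.30 to 0.26, which corresponds to LE over CH ratios from 0.811 (Pdss2) to 1.20 (Fntb).

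**Figure D1:**
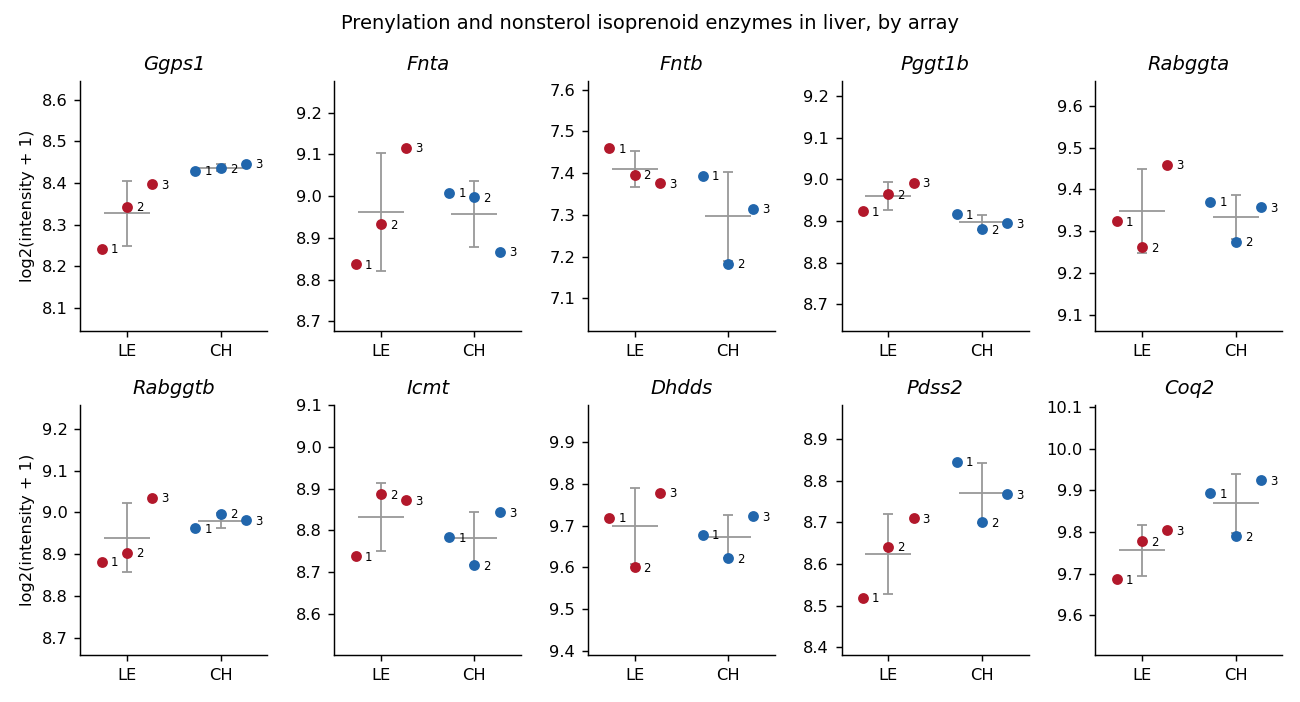
Values of the 10 enzymes on each array as log2(intensity + 1), in panels that all span 0.6 on the log2 scale. Red points are the 3 arrays of the lovastatin and ezetimibe diet (LE) and blue points the 3 of the cholesterol diet (CH), with the replicate number beside each point, and grey bars give the mean and SD. The groups do not overlap for Ggps1 and Pggt1b and overlap for the other 8.

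Ggps1 makes geranylgeranyl diphosphate from farnesyl diphosphate and so supplies the geranylgeranyl transferases. Its log2 level was 8.24, 8.34 and 8.40 in LE1, LE2 and LE3, against 8.43, 8.44 and 8.45 in CH1, CH2 and CH3. All 3 LE arrays lay below all 3 CH arrays, the nearest by less than the spread among the LE arrays. The difference was -0.11 (SE 0.06, interval -0.24 to 0.02, limma adjusted p = 0.275). Groups that do not overlap were found for 1 enzyme in each direction, here and for Pggt1b, where 30.6% of all genes had them, 15.9% with LE above and 14.7% with LE below.

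Proteins receive a farnesyl group from farnesyltransferase and a geranylgeranyl group from geranylgeranyl transferase I, enzymes that share the alpha subunit Fnta and differ in the beta subunit, Fntb in the first and Pggt1b in the second. Fnta stood at 8.84, 8.93 and 9.12 in LE1, LE2 and LE3 and at 9.01, 8.997 and 8.87 in CH1, CH2 and CH3 (log2 level). The LE arrays spread on both sides of the CH arrays, with a difference of 0.004 (SE 0.08, interval -0.18 to 0.19, limma adjusted p = 0.985).

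Fntb, which binds the farnesyl group and the protein, had log2 levels of 7.46, 7.40 and 7.38 in LE1, LE2 and LE3, against 7.39, 7.18 and 7.31 in CH1, CH2 and CH3. Only CH1 reached the range of the LE arrays, and the difference of 0.11 was the highest of the 10 (SE 0.07, interval -0.04 to 0.26, limma adjusted p = 0.343). Pggt1b had 8.92, 8.96 and 8.99 in LE1, LE2 and LE3, against 8.92, 8.88 and 8.89 in CH1, CH2 and CH3 (log2 level). The lowest LE array lay just above the highest CH array, a difference of 0.06 (SE 0.05, interval -0.05 to 0.17, limma adjusted p = 0.482).

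Set against each other within each array, the subunits had ratios whose values overlapped between the diets. The log2 ratio of Fntb to Fnta averaged -1.55 ± 0.18 in LE and -1.66 ± 0.14 in CH (SD, n = 3 each; exact permutation p = 0.4, two-sided). That of Pggt1b to Fnta averaged -0.002 ± 0.11 in LE and -0.06 ± 0.08 in CH (exact p = 0.6, n = 3 each), and that of Fntb to Pggt1b -1.55 ± 0.08 in LE and -1.60 ± 0.09 in CH (exact p = 0.5, n = 3 each). Only the change of such a ratio between diets can be read, not its size, and 3 arrays against 3 cannot give an exact p below 0.1. In all 15 pairs of genes were compared in this way, and after Benjamini-Hochberg adjustment over them the values for these pairs were 0.462, 0.6 and 0.536.

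Rab proteins receive their geranylgeranyl groups from a separate enzyme, whose subunits are Rabggta and Rabggtb. Rabggta had log2 levels of 9.32, 9.26 and 9.46 in LE1, LE2 and LE3 and 9.37, 9.27 and 9.36 in CH1, CH2 and CH3. The CH arrays fell inside the range of the LE arrays, and the difference was 0.01 (SE 0.06, interval -0.14 to 0.16, limma adjusted p = 0.934). Rabggtb had 8.88, 8.90 and 9.04 in LE1, LE2 and LE3, against 8.96, 8.997 and 8.98 in CH1, CH2 and CH3 (log2 level). Here LE3 was above and LE1 and LE2 were below every CH array, and the difference was -0.04 (SE 0.06, interval -0.17 to 0.09, limma adjusted p = 0.737). Their log2 ratio, Rabggtb to Rabggta, averaged -0.41 ± 0.04 in LE and -0.35 ± 0.07 in CH (SD, n = 3 each; exact permutation p = 0.4, adjusted 0.462).

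Icmt acts last in the maturation of farnesylated and many geranylgeranylated proteins, where it methylates the prenylated cysteine at the end of the protein. It had log2 levels of 8.74, 8.89 and 8.87 in LE1, LE2 and LE3 and 8.78, 8.72 and 8.84 in CH1, CH2 and CH3. Besides LE1, the LE arrays were above the CH arrays, and the difference was 0.05 (SE 0.06, interval -0.09 to 0.20, limma adjusted p = 0.685). In the RefSeq gene table Icmt overlaps another gene, Rnf207, whose transcripts were not told apart here.

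Dhdds is the catalytic subunit of the enzyme that builds the long chain of dolichol. Its log2 level was 9.72, 9.60 and 9.78 in LE1, LE2 and LE3 and 9.68, 9.62 and 9.72 in CH1, CH2 and CH3. The groups lay over each other, with a difference of 0.03 (SE 0.06, interval -0.12 to 0.17, limma adjusted p = 0.858). Nus1, the partner subunit, differed by -0.04 (SE 0.05, interval -0.15 to 0.08, limma adjusted p = 0.745). The log2 ratio of Nus1 to Dhdds was 1.03 ± 0.09 in LE and 1.09 ± 0.03 in CH (SD, n = 3 each; exact permutation p = 0.3, adjusted 0.409).

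Pdss2, a subunit of the synthase that makes the coenzyme Q tail, and Coq2, which joins that tail to the aromatic ring, had 2 of the 3 lowest differences, Ggps1 having the other. Pdss2 had log2 levels of 8.52, 8.64 and 8.71 in LE1, LE2 and LE3, against 8.84, 8.70 and 8.77 in CH1, CH2 and CH3. LE3 lay just above CH2, and the difference was -0.15 (SE 0.07, interval -0.30 to 0.01, limma adjusted p = 0.226). Coq2 had 9.69, 9.78 and 9.80 in LE1, LE2 and LE3, against 9.89, 9.79 and 9.92 in CH1, CH2 and CH3 (log2 level). CH2 lay among the LE arrays, and the difference was -0.11 (SE 0.06, interval -0.25 to 0.02, limma adjusted p = 0.294). Neither was called under any of the 15 alternatives, where the adjusted p of Pdss2 was 0.0945 to 0.490 and that of Coq2 0.124 to 0.531. The unadjusted p of Pdss2 was 0.0598 as reported, 0.0312 without LE3 and 0.0211 in the manner of cyberT.

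Within the LE group the enzymes tended to follow the array. LE3 was the highest of the 3 LE arrays for 8 of the 10 enzymes and LE1 the lowest for 7, and among the CH arrays CH2 was the lowest for 7. Over all genes LE3 was the highest LE array for 52.8%, LE1 the lowest for 34.4% and CH2 the lowest CH array for 37.6%. After quantile normalisation the enzymes' counts were 5, 7 and 6. The part of array scaling in the members' differences was not tested beyond the normalisations reported.

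**Figure D2:**
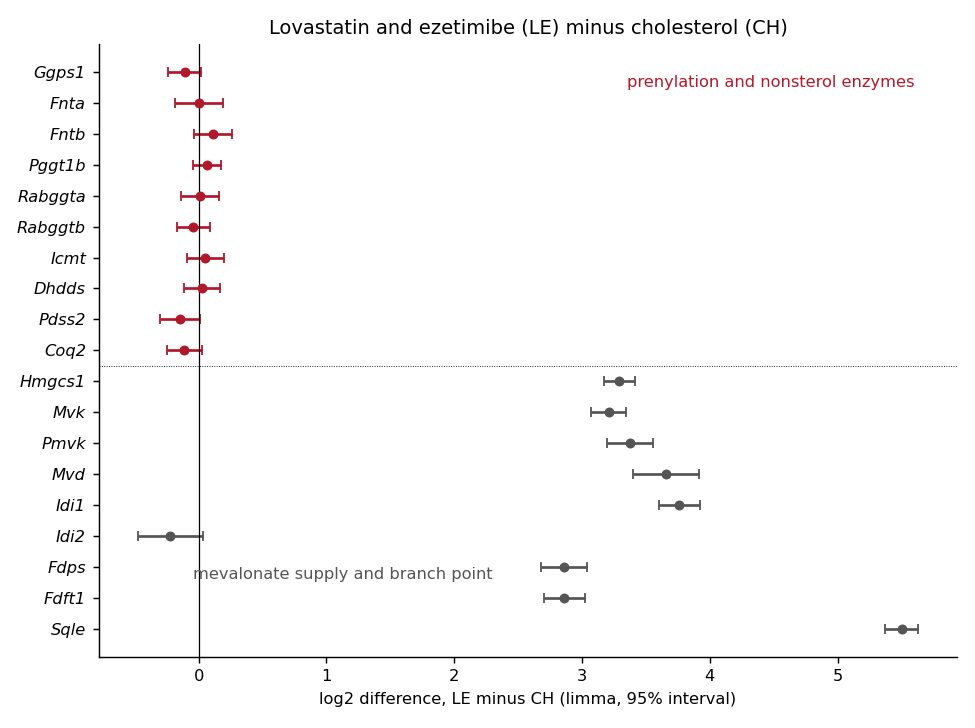
Differences in log2(intensity + 1), LE minus CH, with the 95% interval of the limma fit, n = 3 arrays per diet. Red points are the 10 enzymes outside the sterol branch, all between -0.15 and 0.11, and grey points are the 9 measured enzymes from mevalonate supply through the branch point to Sqle, where 8 lie above 2.8 and Idi2 lies at -0.22.

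The mevalonate enzymes that make the substrate and the first enzymes of the sterol branch, Fdft1 and Sqle, were read in the same fit. Of 9 measured genes from mevalonate synthesis to squalene epoxidation, 8 rose and Idi2 did not pass, with a median difference of 3.29. The largest rises were those of Sqle, the squalene epoxidase, by 5.50, Idi1, the isopentenyl diphosphate isomerase, by 3.76, and Mvd, which makes isopentenyl diphosphate, by 3.66 (limma, all called under every alternative). Fdps, whose product every branch draws on, had log2 levels of 13.71, 13.72 and 13.57 in LE1, LE2 and LE3, against 10.78, 10.69 and 10.95 in CH1, CH2 and CH3. It rose by 2.86 (SE 0.08, interval 2.68 to 3.04), and Fdft1, which joins farnesyl groups into squalene and opens the sterol branch, rose by 2.86 (SE 0.07, interval 2.70 to 3.02). Fdft1 overlaps Ctsb in the RefSeq gene table. Idi2, another isomerase and chosen for mention once its value was known, had a difference of -0.22 (interval -0.48 to 0.03). Its mean log2 level was 5.08 in LE and 5.31 in CH, beside array medians of 7.60 to 7.67 over all genes. Whether that signal stood above background is unknown.

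The gap between each of the 10 enzymes and Fdps was taken within each array. The difference in the log2 ratio of an enzyme to Fdps, LE minus CH, was -2.74 for Fntb, nearest to 0 of the 10, and -3.005 for Pdss2, farthest from it. For Ggps1, which competes with Fdft1 for farnesyl diphosphate, the ratio averaged -5.34 ± 0.15 in LE and -2.37 ± 0.12 in CH (SD, n = 3 each), a difference of -2.97. In each of the 10 pairs all LE arrays lay below all CH arrays, which gives an exact two-sided permutation p = 0.1, the lowest possible with 3 against 3 (0.15 after adjustment over the 15 pairs). The 10 ratios share the same Fdps values and are not independent, and Fdps was chosen with its rise known. Since no enzyme differed by more than 0.15 on the log2 scale, the separation restates the rise of Fdps and is no separate evidence about the 10. The highest upper bound among the 10 enzymes was 0.26, for Fntb, whereas the interval of Fdps began at 2.68.

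Promoter windows are shown for Ggps1, which opens the geranylgeranyl branch, for Pdss2, which had the lowest difference, and for Hmgcs1. Hmgcs1, an early enzyme of the mevalonate pathway, rose by 3.29 (interval 3.17 to 3.41). It was chosen because its window alone, among those searched for the 10 enzymes and the mevalonate genes, holds the sterol element. Each window runs 5′ to 3′ from 250 bases before to 50 bases after the annotated start, from RefSeq on GRCm38.p6. Capitals mark matches on either strand. The sterol regulatory element was searched as TCACNCCAC. The CCAAT box was searched by the letters of its name, which read ATTGG where the match is on the other strand. The GC box was searched as GGGCGG. On the other strand its match reads CCGCCC. The windows are chr13:14063439-14063738 on the minus strand for Ggps1, chr10:43221236-43221535 on the plus strand for Pdss2 and chr13:119690101-119690400 on the plus strand for Hmgcs1.
Ggps1: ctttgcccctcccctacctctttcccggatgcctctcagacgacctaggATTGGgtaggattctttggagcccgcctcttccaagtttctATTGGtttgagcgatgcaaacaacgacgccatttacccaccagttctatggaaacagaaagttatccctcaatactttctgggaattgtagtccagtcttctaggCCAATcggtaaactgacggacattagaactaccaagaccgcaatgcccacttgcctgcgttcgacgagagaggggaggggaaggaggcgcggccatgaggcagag
Pdss2: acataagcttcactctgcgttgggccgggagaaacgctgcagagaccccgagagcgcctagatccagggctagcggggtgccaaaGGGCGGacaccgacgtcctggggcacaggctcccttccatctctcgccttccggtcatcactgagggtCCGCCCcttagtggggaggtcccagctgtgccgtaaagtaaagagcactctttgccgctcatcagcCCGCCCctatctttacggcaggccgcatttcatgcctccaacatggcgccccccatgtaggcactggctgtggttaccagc
Hmgcs1: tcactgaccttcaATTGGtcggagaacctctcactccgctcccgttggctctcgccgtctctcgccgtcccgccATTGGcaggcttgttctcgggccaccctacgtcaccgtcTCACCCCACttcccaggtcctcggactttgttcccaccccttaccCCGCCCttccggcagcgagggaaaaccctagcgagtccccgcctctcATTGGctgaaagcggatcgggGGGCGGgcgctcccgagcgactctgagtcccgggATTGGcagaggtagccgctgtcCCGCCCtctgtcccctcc

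Windows were matched for 8 of the 10 enzymes, all but Fnta and Pggt1b, as 11 windows in all, of which those of Rabggta overlap in part. Windows on 1 chromosome were left out for the enzymes and the mevalonate genes, though not in the counts over all windows. The sterol element was found in 0 of these 11 windows, in 1 of 8 windows of 7 mevalonate genes, that of Hmgcs1, and in 1.24% of all 32851 windows. Since 7 of the 8 mevalonate windows also lack these letters, the search does not separate the groups. The CCAAT box was found in 3 of the 11 windows, 5 of the 8 and 37.4% of all, and the GC box in 6 of the 11, 5 of the 8 and 35.7% of all. Ggps1 held 3 CCAAT boxes and 0 GC boxes, Pdss2 0 and 3, and Hmgcs1 4 and 3. In the windows printed no match overlaps another. A match is a string of letters in the window, and its absence says only that the window lacks them.

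Around the 10 enzymes, 7 further lists cover the steps before and after them and the proteins that carry the lipid, with 98 of 106 genes measured and the other 8 not analysed here. Counts over these lists take in all 7, of which 6 are described one by one. Of the 98, 15 rose and 5 fell, together 20.4% beside 12.1% of all genes, and the median difference was 0.04. The 98 were brighter than most genes. Their mean log2 level was 9.77 to 9.87 on the LE arrays and 9.73 to 9.77 on the CH arrays, beside array medians of 7.60 to 7.67 over all genes. The part of brightness in their share of calls was not tested. Fits that left out 1 array called fewer genes throughout, 1489 to 1868 over all genes against 2410. Of the 20 calls in the lists, 7, Chml, Pcyox1l, Alg12, Lmna, Ptp4a2, Rab4a and Rab20, were called in every fit that left out 1 array and in every other alternative. Over the fits that left out 1 array the number of risers was 6 to 11 and that of fallers 2 to 3, the fewest risers without CH1.

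**Figure D3:**
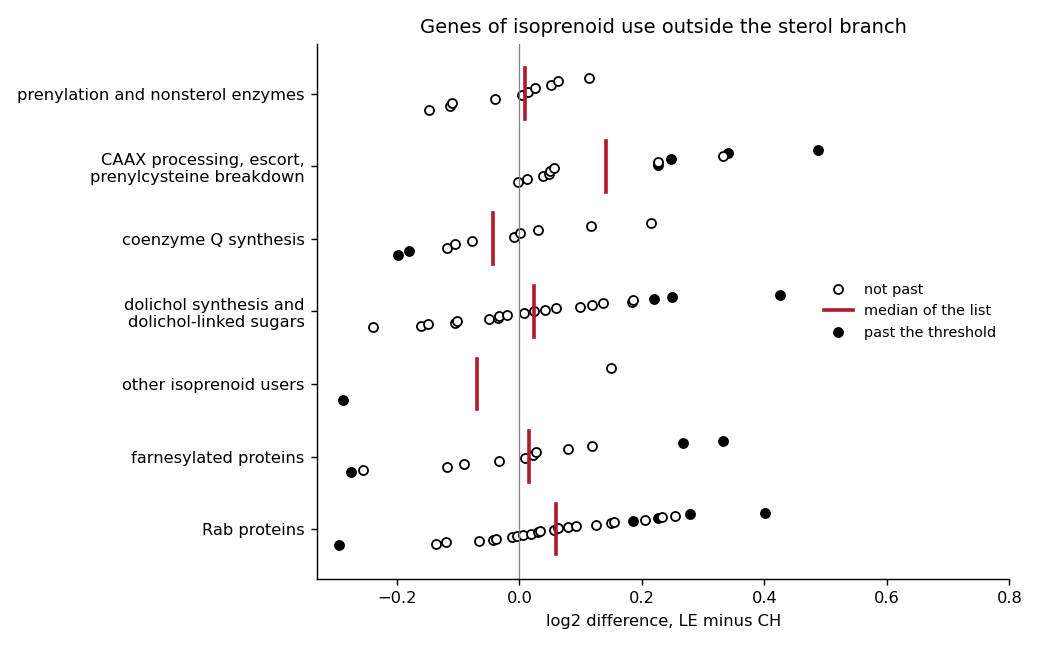
Differences in log2(intensity + 1), LE minus CH, for the 10 enzymes and for the genes of 6 lists of isoprenoid use outside the sterol branch, 1 point per gene, n = 3 arrays per diet. Filled points passed limma's threshold, open points did not, and red bars are list medians, from -0.07 for the 2 other isoprenoid users to 0.14 for CAAX processing and escort.

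Among genes that process, carry or break down prenylated proteins, 4 of 12 rose, 0 fell and 8 did not pass (median 0.14). Pcyox1l, a relative of the prenylcysteine oxidase Pcyox1, had log2 levels of 8.33, 8.22 and 8.47 in LE1, LE2 and LE3, against 7.72, 7.90 and 7.94 in CH1, CH2 and CH3, and rose 1.40-fold (difference 0.49, SE 0.08, limma adjusted p = 0.0082). Chml, a Rab escort protein that presents Rabs to the Rabggta and Rabggtb enzyme, stood at 7.36, 7.48 and 7.52 in LE1, LE2 and LE3 and at 7.09, 7.11 and 7.14 in CH1, CH2 and CH3 (log2 level). All LE arrays were above all CH arrays, a 1.27-fold rise (difference 0.34, SE 0.06, limma adjusted p = 0.0068), and Chml overlaps Opn3 in the RefSeq gene table. Pde6d, which binds prenyl groups and ferries the proteins, rose by 0.25 (SE 0.06, limma adjusted p = 0.0363) and Pcyox1, named after its value was seen, by 0.23 (SE 0.05, limma adjusted p = 0.0279). In each fit that left out 1 array neither passed (adjusted p 0.0580 to 0.0995 for Pde6d and 0.0612 to 0.0951 for Pcyox1), which left 2 risers without CH1, CH2, CH3, LE2 or LE3. Nor did Pde6d (0.0781) or Pcyox1 (0.0805) pass with the replicate number added to the fit as a block. The list had 6 risers without the dimmest genes, with limma's intensity trend and in the manner of cyberT. Pde6d overlaps Cops7b in the RefSeq gene table.

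Of 10 measured coenzyme Q genes besides Pdss2 and Coq2, 0 rose, 2 fell and 8 did not pass (median -0.04). Coq3, a methyltransferase of the ring, had 10.58, 10.56 and 10.59 in LE1, LE2 and LE3, against 10.80, 10.78 and 10.74 in CH1, CH2 and CH3 (log2 level), and fell by 0.20 (SE 0.05, limma adjusted p = 0.0308). Coq9, a lipid-binding partner of the ring hydroxylase, had 11.03, 10.97 and 11.01 in LE1, LE2 and LE3, against 11.18, 11.18 and 11.18 in CH1, CH2 and CH3 (log2 level), and fell by 0.18 (SE 0.05, limma adjusted p = 0.0434). For both genes every LE array was below every CH array, by less than 0.3 on the log2 scale. Neither passed in any fit that left out 1 array (adjusted p 0.0532 to 0.129 for Coq3 and 0.0718 to 0.143 for Coq9). Coq9 overlaps Ciapin1 in the RefSeq gene table.

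In dolichol synthesis and the building of dolichol-linked sugars, 3 of 21 measured members rose, 0 fell and the other 18 missed the threshold (median 0.02). Alg12, a mannosyltransferase of the dolichol-linked sugar chain, had log2 levels of 9.48, 9.41 and 9.55 in LE1, LE2 and LE3, against 9.11, 9.03 and 9.03 in CH1, CH2 and CH3. It rose 1.34-fold (difference 0.43, SE 0.06, limma adjusted p = 0.0021). Srd5a3, which takes part in turning polyprenol into dolichol, rose by 0.25 (SE 0.06, limma adjusted p = 0.0241), but did not pass without CH1 (0.0951), CH2 (0.0644), CH3 (0.0591), LE2 (0.0685) or LE3 (0.0516). Alg1, the mannosyltransferase that adds the first mannose, rose by 0.22 (SE 0.06, limma adjusted p = 0.0439) and passed in no fit that left out 1 array (adjusted p 0.0557 to 0.121). The list kept 1 riser without CH1, CH2, CH3, LE2 or LE3 and 5 with that trend and in the manner of cyberT. Alg1 overlaps Eef2kmt in the RefSeq gene table. Of 2 other isoprenoid users measured, Trit1, which attaches an isopentenyl group to transfer RNA, fell by 0.29 (SE 0.07, limma adjusted p = 0.0343), and passed with LE3 left out but with no other array left out (0.0658 to 0.0974).

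The proteins that receive the lipid showed small differences in both directions. Of 12 farnesylated proteins measured, 2 rose, 1 fell and 9 did not pass (median 0.02). Lmna, a protein of the nuclear lamina, rose 1.26-fold (difference 0.33, SE 0.05, limma adjusted p = 0.0057), with 8.89, 8.85 and 8.90 in LE1, LE2 and LE3, against 8.62, 8.54 and 8.49 in CH1, CH2 and CH3 (log2 level). The phosphatase gene Ptp4a2 was 1.21-fold lower (difference -0.27, SE 0.05, limma adjusted p = 0.0080), with 10.95, 11.00 and 10.93 in LE1, LE2 and LE3, against 11.24, 11.24 and 11.22 in CH1, CH2 and CH3 (log2 level). Pex19, which brings membrane proteins to peroxisomes, rose by 0.27 (SE 0.05, limma adjusted p = 0.0153), and did not pass without CH2 (0.0555) or CH3 (0.0508). The list had 2 fallers without CH2.

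Among 26 Rab proteins, the substrates of Rabggta and Rabggtb, 4 rose, 1 fell and 21 did not pass (median 0.06). Rab4a, of endosome recycling, had log2 levels of 9.81, 9.90 and 9.87 in LE1, LE2 and LE3, against 9.42, 9.45 and 9.51 in CH1, CH2 and CH3, a 1.32-fold rise (difference 0.40, SE 0.05, limma adjusted p = 0.0020). Rab20 was 1.23-fold lower (difference -0.29, SE 0.05, limma adjusted p = 0.0090), with 8.40, 8.46 and 8.50 in LE1, LE2 and LE3, against 8.79, 8.70 and 8.76 in CH1, CH2 and CH3 (log2 level). Rab5b, of early endosomes, rose by 0.28 (SE 0.05, limma adjusted p = 0.0111), and did not pass without CH1 (0.0501). It overlaps Pmel in the RefSeq gene table. Rab6a, of Golgi traffic, and Rab32, both named after their values were seen, rose by 0.23 and 0.19, and neither passed in a fit that left out 1 array (adjusted p 0.0633 to 0.127 and 0.0876 to 0.146). Rab6a overlaps Mrpl48 in the RefSeq gene table. Rab32 also failed after centring on array medians (0.0501). With the replicate number added to the fit as a block, neither Rab6a (0.0818) nor Rab32 (0.105) passed. The number of Rab risers was 1 without CH1, 2 without CH2, LE2 or LE3, 7 after quantile normalisation, without the dimmest genes or with a pseudocount of 16, and 10 with that trend and in the manner of cyberT.

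Markers of liver cell types were read beside these lists, since whole liver holds several. The tissue label was borne out by 12 hepatocyte markers, whose mean log2 level was 13.88 to 13.93 on the LE arrays and 13.90 to 13.93 on the CH arrays, with 0 called, though 2 higher and 1 lower were called with that trend and in the manner of cyberT. Among 13 macrophage markers, those of Kupffer cells included, 12 rose, and Cd5l, singled out once its value was known, did not pass. Their median difference was 0.37, and their mean log2 level was 9.76 to 9.81 on the LE arrays and 9.37 to 9.44 on the CH arrays. More cells of a type and more RNA per cell cannot be told apart in such samples. The part of macrophage RNA in the rises of the lists was not tested. No marker was called among 7 of endothelial cells, 4 of cholangiocytes, 7 of lymphocytes, 3 of adipocytes and 3 of pancreatic acinar cells, and 1 of 8 stellate cell and fibroblast markers, Col3a1, named after its value was seen, fell, a call made in none of the fits that left out 1 array.

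**Figure D4:**
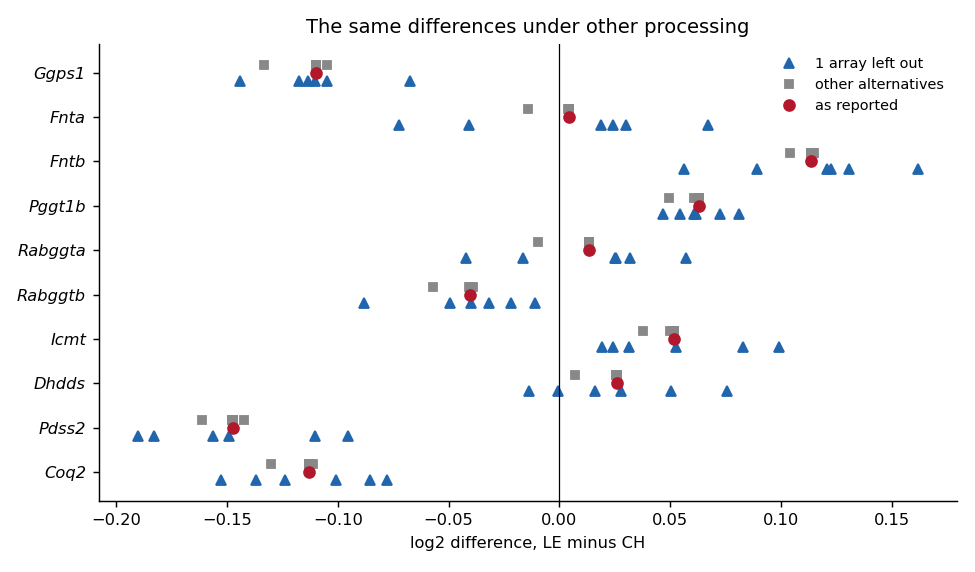
Differences in log2(intensity + 1), LE minus CH, for the 10 enzymes as reported (red circles), in the 6 fits that left out 1 array (blue triangles) and under the 9 other alternatives (grey squares). The values of all 10 enzymes stay between -0.19 and 0.16, and Fnta, Rabggta and Dhdds have values on both sides of 0.

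No call among the 10 enzymes changed with the processing, but the size of their differences did. Over the 15 alternatives 0 of the 10 were called in any, the lowest adjusted p being 0.0924 (limma) for Ggps1 after quantile normalisation. Over all genes these fits called from 1489, without CH1, to 3746, in the manner of cyberT. With 1 array left out, Ggps1 was at -0.07 without LE1 and -0.14 without LE3, and Pdss2 at -0.10 without LE1 and -0.19 without LE3. Coq2 was at -0.08 without LE1 and -0.15 without CH2. Fntb was at 0.06 without CH2 and 0.16 without CH1, and Icmt at 0.02 without CH2 and 0.10 without LE1. Ggps1, Rabggtb, Pdss2 and Coq2 were below 0 and Fntb, Pggt1b and Icmt above 0 in every one of these fits, whereas Fnta, Rabggta and Dhdds changed sign, Fnta and Rabggta after quantile normalisation and all 3 without LE3.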

How the data were processed

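Liver RNA of 3 LE and 3 CH arrays was used. The authors deposited linear probe set intensities from Affymetrix Mouse Gene 1.0 ST arrays. Per the series design, differential expression was assessed with Partek Genomics Suite and cyberT. How the intensities were background-corrected, summarised and normalised is not given in the sources used here. Platform annotation named 1 gene for 21789 of 35556 probe sets, several for 1621 and no gene for 12146. A RefSeq table held 21698 of the single-gene probe sets by identifier, and 0 symbols changed. Each gene was read from its brightest single-gene probe set by mean over the arrays, giving 19938 genes, and each of the 10 enzymes had only 1. No 2 arrays shared more than 28 values.

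Log2(intensity + 1) was compared between the diets with limma 3.58.1 (lmFit, eBayes, two-sided, no covariates) in R 4.3.3, adjusted by Benjamini-Hochberg over all genes, and the fits were tested on simulated data. Exact tests and plots used Python 3.11.15 with pandas 2.3.3, numpy 2.4.6 and matplotlib 3.10.9. The enzymes, the 8 gene lists and the 8 marker lists were chosen with earlier results of these data known. Besides the enzymes, genes were named by rule: per list up to 3 called genes with the largest difference whose groups did not overlap, the subunit partners, Fdps and Fdft1. Results of 1 list and of genes named with it are not reported here, though its genes count in the totals. Others are said to be named after their values were seen. Promoter windows came from RefSeq, and matches were counted on both strands. Alternatives were the replicate number as a block, quantile normalisation, centring, a filter that removed the dimmest 33.3% of genes, probe sets averaged per gene, an intensity trend with robust prior, a test in the manner of cyberT (windows of 101 genes, 10 prior degrees of freedom, chosen here), pseudocounts of 16 and none, and leaving out each array. The motifs and the windows printed were chosen with the values known. A further limma fit, of each gene minus Fdps on each array, was added after seeing the data, run and then discarded once its results were seen: the subtraction puts the same Fdps noise into every gene, which makes its standard errors nearly equal and its p-values uninterpretable. The exact permutation tests of these ratios, planned earlier, are reported instead.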

Additional observations from a re-analysis of the deposited data

How the results depend on the processing

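For the 10 enzymes, the counts of 0 higher and 0 lower held under all 15 alternatives. After quantile normalisation Fnta was at -0.014 and Rabggta at -0.0097, and with 1 array left out Fnta ranged from -0.073 to 0.067, Rabggta from -0.042 to 0.057 and Dhdds from -0.014 to 0.075 on the log2 scale. None of these was past the threshold in any fit. Whether the replicate numbers pair the arrays cannot be told from correlations of deviations from the group means, since deviations within a group offset each other. Between LE and CH arrays of the same number these correlations were -0.021, -0.097 and 0.160. LE1 correlated best with CH2 (0.246), LE2 with CH3 (0.092) and LE3 with CH3 (0.160). With the replicate number as a block, the genes called lower were 657 rather than 1012, and the 7 lists had 8 risers and 3 fallers rather than 15 and 5. Coq3, Coq9, Alg1 and Trit1 were among the genes that did not pass with that block (limma adjusted p 0.0557 to 0.0965). Over all genes, 2410 were called, 3746 in the manner of cyberT (1678 lower), and the lower calls were 1560 with the intensity trend. At least 1.5-fold changes were met by 436 of the calls, 316 higher and 120 lower. The 7 lists had 24 risers without the dimmest 33.3% of genes, 28 risers and 10 fallers with the trend, and 29 and 11 in the manner of cyberT. With 1 array left out the calls over all genes were 1489 to 1868, those lower 525 to 893, and the lists had 6 to 11 risers and 2 to 3 fallers. The cause of these shifts was not tested. The lowest total came without CH1, and the fewest lower calls without LE2. No enzyme had another single-gene probe set to test. The ratio of Pdss2 to its partner subunit is not analysed here. No detection calls were used, so signal over background is unknown.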
